A study of Drosophila melanogaster with 4 samples.

Results

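The 568 Scute peaks described here lay in dense loci of the Drosophila melanogaster genome, among 2136 peaks deposited for chromatin immunoprecipitation with sequencing (ChIP-seq) in embryos. A locus was called dense where 5 or more peaks followed each other along a chromosome arm with at most 10 kb between successive midpoints. Only the 5 main arms (X, 2L, 2R, 3L and 3R) were chained, which left out 130 peaks on chromosome 4 and on the unplaced scaffolds U and Uextra. On those arms 568 of 2006 peaks (28.3%) formed 79 dense loci, 860 peaks formed groups of 2 to 4, and 578 were isolated. The members were chosen by their peak positions alone, so their number and close spacing are a description and not a finding.

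The protein Scute belongs to the basic helix-loop-helix family of transcription factors and is encoded in the achaete-scute complex. It acts as a proneural protein: in groups of ectodermal cells it promotes the neural precursor fate, which Notch signalling then restricts to single cells. It binds DNA as a heterodimer with the broadly expressed Daughterless protein, at short motifs called E-boxes. Genes that take part in development in Drosophila often have several separate enhancers, so a single gene region can hold several sites of binding.

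The series held 2 ChIP libraries made with an unpurified polyclonal serum raised in guinea pig against Scute, and 2 libraries of input DNA, which is sheared chromatin that serves as background. Both kinds came from whole embryos collected over 0 to 12 h and fixed in 1.8% formaldehyde for 15 min, so tissues and stages were mixed. All were of the y; cn bw sp stock, which carries y[1], cn[1], bw[1] and sp[1]. The labelled genotype also holds oc[R3.2], CG33964[R4.2], Gr22d[1] and Gr22b[1], together with GstD5[1], Rh6[1], MstProx[1], lab[R4.2] and LysC[1]. The antigen is given as unknown, and nothing says whether replicates were separate embryo collections. The 4 libraries are represented by 1 peak list on FlyBase release 5, with a position and a score per peak and no value per library. Depth per library is therefore unknown, no spread between replicates could be computed, and no comparison below carries a test.

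The score was read from its values as −log10 of a p-value, the peak caller's measure of how far the fragments piled up at a peak exceed background. Under a Poisson background of 50.145 overlapping fragments, 74.1% of the 2136 scores equal, to within 0.01, the value for a whole number of fragments. Other means tried, more than 1 fragment away, gave at most 26.8%. For such matched peaks a score can be turned into a pileup and a fold over that background. On this scale a score of 10.05 is 101 fragments, a score of 20.35 is 129 fragments, and the highest score among the members, 139.55, is 316 fragments or 6.30-fold over background.

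A typical dense locus was a run of about 6 low peaks spread over some 14 kb, and 18 of the 79 loci held a peak with a score of 30 or more. Over the 79 loci the median was 6 peaks (interquartile range 5 to 8, highest 21). Of these, 22 loci had exactly 5 peaks, 21 had 6, and 10 had 10 or more. The span, from the first peak's start to the last peak's end, had a median of 14.3 kb and ran from 3.105 to 55.1 kb. Together the loci spanned 1226 kb, of which the peaks themselves covered 18.0% (221 kb). Covered shares of single loci ran from 5.52% to 69.9%, so some dense loci were a few narrow peaks far apart and in others the peaks filled most of the span.

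The locus with the most peaks lay at the low-coordinate end of 3L, from 421 to 18763, where 21 peaks stood at a median gap of 880 bp between midpoints. All 21 were low, with scores from 7.12 to 14.47, and no peak stood apart from the rest. The low-coordinate end of 2L held a similar run of 11 peaks between 212 and 21271, with scores from 6.50 to 15.96. In that run 7 of the peaks lay below base 5036 of the arm, and the other 4 were spaced between 12043 and 21271. Both runs begin within 500 bp of the first base of their arm in the assembly.

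On 3R, 4 loci held 13 or more peaks and differed in build. The longest of all 79 loci, from 2898370 to 2953432, had 15 peaks over 55.1 kb. A peak from 2912755 to 2914384, was the widest of all members at 1630 bp and scored 31.26. Another peak scored 20.35, and the other 13 scored between 8.74 and 13.75. The locus from 21847755 to 21881014 had 14 peaks, of which the third (score 37.34, 1163 bp) and the eighth (score 57.72, 1124 bp) rose above the rest. These 2 broad peaks were 3.29-fold and 4.01-fold over background, with the other 12 peaks between 8.52 and 13.75.

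By contrast, the 14 peaks on 3R from 27549004 to 27576043 had no peak above 17.91. They fell into a first set of 7 peaks that started within 6802 bp of each other, a lone peak that started 12379 bp into the locus, and a last set of 6 peaks from 21663 bp on. In the locus from 12060460 to 12099190, 12 low peaks (scores 7.95 to 13.04) were followed by a last peak of score 26.51, which was only 339 bp wide. That peak stood 9855 bp beyond its neighbour between midpoints, close to the 10 kb limit.

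The 4 loci with 10 peaks were also of mixed build. On 2L from 8402512 to 8430065, a 685 bp peak of 28.85 stood among 9 peaks between 7.12 and 13.40. On 2R from 6406456 to 6428805, peaks of 11.01 and 10.37 came first, and the next peak stood 9628 bp further on between midpoints. From there the scores were, in order, 18.71, 13.42, 19.94, 21.19, 11.67, 8.52, 16.73 and 9.43. On 3L from 9434388 to 9459035, peaks of 17.91 and 19.39 stood among 8 peaks between 7.39 and 12.01. The fourth, on 2R from 4503678, was far shorter and is described with the tightest loci.

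**Figure D1:**
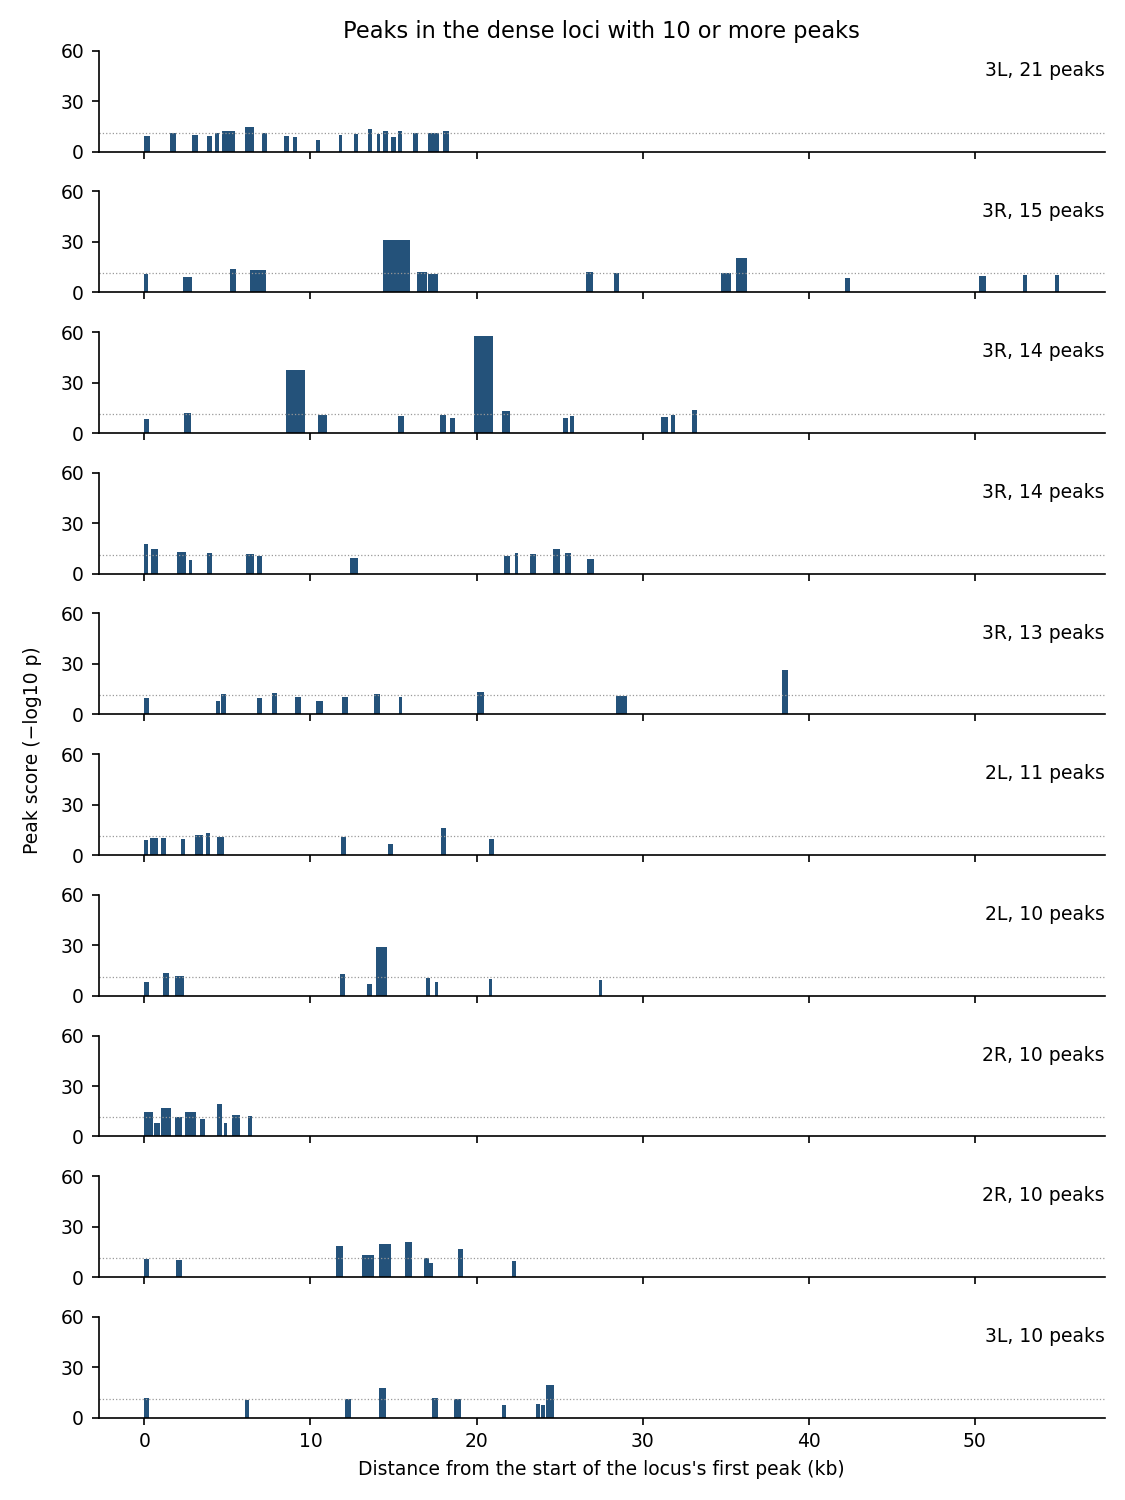
Peaks in the 10 dense loci with 10 or more peaks, 1 locus per row, labelled with its arm and number of peaks. The x axis is the distance in kb from the start of the first peak, each bar has the width of its peak and the height of its score (−log10 p), and the dotted line marks the median score of all members, 11.34. Most bars stay near that line, and the 3R locus with broad peaks of 37.34 and 57.72 stands out.

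Lead peaks, the highest-scoring peak of each locus, had a median score of 20.35 (interquartile range 16.9 to 28.1, from 11.34 to 139.55). The 489 other members had a median of 10.69, with an interquartile range of 9.43 to 12.70. Choosing the highest of several peaks makes the lead high by construction. The lead was also the widest peak of its locus in 43 of 79 loci, and leads had a median width of 556 bp, against 304 bp for the other members. Score and width come from the same pileup, and across the 568 members they moved together (Spearman's rho = 0.59, a description over peaks of 1 list).

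The median score of a locus had an interquartile range of 10.5 to 12.7. In 37 loci no peak reached a score of 20, in 24 the lead lay between 20 and 30, and in 18 it was 30 or more. A score of 20 or more was held by 59 members (10.4%), beside 11.9% of all main-arm peaks. Scores of 30 or more were held by 23 members (4.05%), beside 4.54% of all main-arm peaks, and scores of 50 or more by 8 members (1.41%), beside 1.15%. The 23 strong members fell into 18 loci, and in 14 of those the lead was the only peak of 30 or more. The lead was a median of 1.27 times the second score (interquartile range 1.13 to 1.64), and in 11 loci it was at least 2 times.

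The 4 loci in which the lead stood out most, by its ratio to the second score, lay on 3R, the X and 3L. The highest member, on 3R from 8889530 to 8890441 (912 bp), is the highest peak of the whole list. Its 4 neighbours in the locus scored 20.35, 13.40, 10.69 and 15.66, so the lead was 6.86 times the second score. On the X, the peak from 19531135 to 19532242 scored 67.69 (217 fragments, 4.33-fold), and its 4 neighbours scored 7.67, 9.43, 10.37 and 11.34. A 1339 bp peak on 3R from 8837701 to 8839039 scored 45.00 and was followed by 5 peaks between 8.22 and 12.35. On 3L, a peak from 16045141 to 16045987 (score 50.01, 3.75-fold) closed a row of 6 peaks that scored between 11.34 and 14.84.

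Only 4 of the 79 loci held more than 1 peak of 30 or more. The 2R locus from 6305539 to 6325869 was unlike the others, with a median score of 26.97 over its 9 peaks, against a median of 11.44 over all loci. In order along the arm its peaks scored 28.85, 26.97, 51.76, 48.29, 23.35, 9.48, 10.05, 9.74 and 38.54. Thus 6 of the 9 were above 20, with 3 low peaks next to each other between them. The 2R locus from 15993883 to 16002199 opened with peaks of 72.22 and 91.95 (4.47-fold and 5.05-fold), only 406 and 544 bp wide, and then had 3 peaks of 13.04, 8.23 and 9.13. On 2R from 10058168 to 10065894, adjacent peaks of 56.51 and 34.76 stood in the middle of 6 peaks between 8.83 and 12.01. The fourth of these loci was the 3R run with peaks of 37.34 and 57.72 described above.

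The remaining peaks among the 15 highest members stood alone at that height in their loci. They were a 933 bp peak on 3L from 11112648 to 11113580 (score 38.39, 3.33-fold) and a 556 bp peak on 2R from 18571812 to 18572367 (score 37.86, 3.31-fold). After the 1630 bp peak on 3R, the widest member lay on 2R from 8473982 to 8475451. It was 1470 bp wide, scored 26.05 and stood next to the lead of its locus, an 896 bp peak of 33.25.

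**Figure D2:**
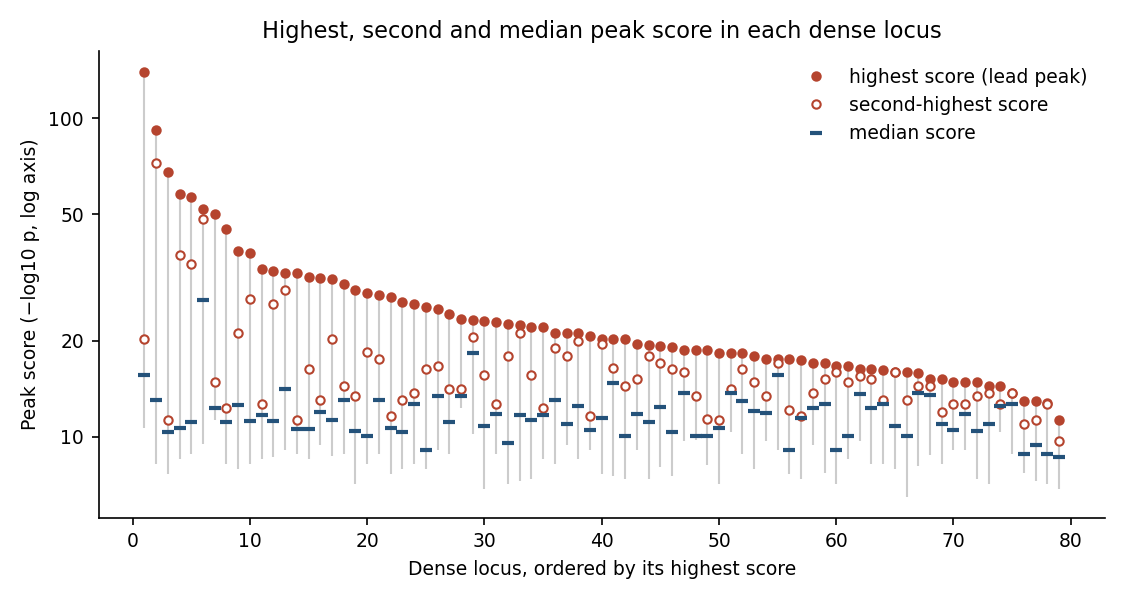
Highest score (filled circles), second-highest score (open circles) and median score (bars) of each of the 79 dense loci, ordered by the highest score, with grey lines from the lowest to the highest peak. The y axis is the score (−log10 p) on a log scale. Leads run from 139.55 down to 11.34, while the medians stay between 8.66 and 18.35 in all loci but the 2R locus at 26.97.

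Other loci with high medians were raised by several peaks of middling height. The 2R locus from 7249279 to 7258319 had a median of 18.35 over 6 peaks, which scored 10.22, 16.35, 10.69, 20.63, 20.35 and 23.35. On 2R from 19945640 to 19955324, 5 peaks scored 17.12, 17.51, 15.59, 13.53 and 9.13, and on 2R from 15330127 to 15338985, 6 peaks had a median of 14.8 and a lead of 20.35. The 3R locus of the 139.55 peak, with a median of 15.66, was also among the 5 with the highest medians. Of these 5 loci, 4 were thus on 2R, which held 27 of all 79 dense loci. The median score of members was 11.515 on 2R, 11.64 on 2L and 11.34 on each of the X, 3L and 3R.

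The height of the other members was also followed with distance from the lead. Members within 1 kb of their locus's lead had a median score of 11.00 (41 peaks in 33 loci). At 1 to 2 kb it was 10.69 (75 peaks), at 2 to 5 kb 10.69 (143 peaks), at 5 to 10 kb 10.69 (108 peaks), and beyond 10 kb 11.0 (122 peaks). In the 18 loci with a lead of 30 or more, the values were 11.9 within 1 kb (6 peaks), 11.9 at 1 to 2 kb (16 peaks), 11.34 at 2 to 5 kb (32 peaks), 10.9 at 5 to 10 kb (28 peaks) and 11.34 beyond 10 kb (34 peaks). As a percent of the lead's own score, the median over all loci was 59.6% within 1 kb and 49.2% beyond 10 kb, and in the 18 loci 35.4% and 28.7%. The distance classes hold different loci, and these values were not tested. Scores of adjacent members were nearly unrelated (Spearman's rho = 0.03 over 489 adjacent pairs that share their locus and list). Of the variance of the log10 score over members, 83.4% lay within loci, where 86.2% of the degrees of freedom lie. The lead was the first or last peak in 22 of 79 loci (27.8%), and such end positions make up 30.6% of all positions, averaged over the loci.

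The number of peaks in a locus was set against their height. Across the 79 loci, the number of peaks had a Spearman's rho of 0.15 with the lead's score and of -0.25 with the median score. A locus with more peaks has more chances of a high lead, which bears on the first value. Peaks per kb of span had a rho of 0.00 with the median score. These are descriptions over loci of 1 list.

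Members were closely spaced, and many lay less than 500 bp from the next. The 489 gaps between successive midpoints had a median of 1410.5 bp (interquartile range 753 to 3200 bp). The most frequent class was 500 to 1000 bp, with 142 gaps (29.0%). Measured between peak edges the median was 1012 bp, the narrowest gap was 46 bp, and 166 gaps (33.9%) were under 500 bp. Groups of 2 to 4 peaks had a median gap of 1655 bp (interquartile range 815 to 4271 bp, 521 gaps). Gaps over 5 kb made up 13.7% in dense loci and 20.7% in those groups. Since the rule used these gaps, and a chain of 5 or more needs several short gaps in a row, the selection favours shorter gaps in dense loci and nothing is read from the difference.

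**Figure D3:**
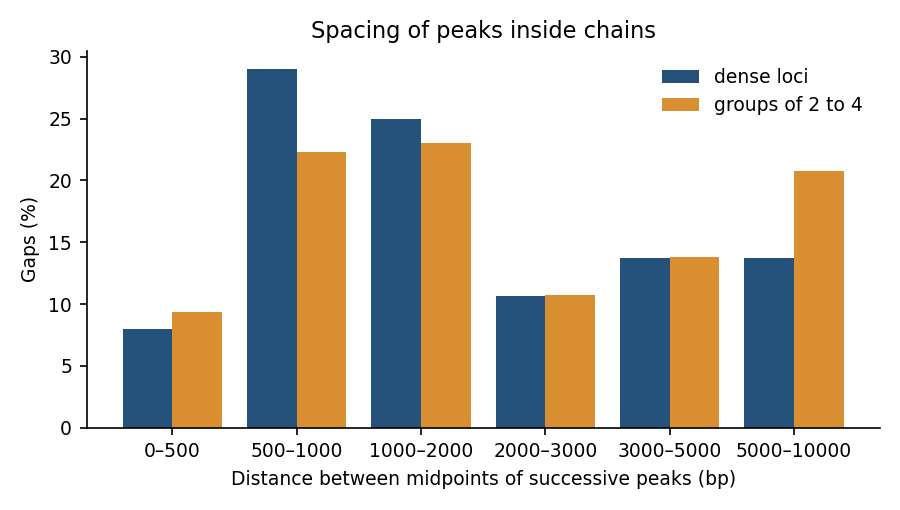
Distances between midpoints of successive peaks inside dense loci (489 gaps) and inside groups of 2 to 4 peaks (521 gaps), as percent of gaps in each class. The classes on the x axis (bp) are of unequal width. The class of 500 to 1000 bp holds 29.0% of gaps in dense loci and 22.3% in the smaller groups.

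The tightest loci, those with the most peaks per kb, had leads from 13.00 to 23.50. Ranking by peaks per kb favours short spans. On 3L from 16401129 to 16404233, 5 peaks lay within 3.105 kb (1.61 peaks per kb) and covered 69.9% of it, with scores of 13.40, 14.11, 12.32, 23.50 and 12.35. On 2R from 4503678 to 4510179, 10 peaks lay within 6.502 kb (1.54 peaks per kb), covered 63.5% of it and scored between 8.06 and 19.23. The other 3 of the 5 tightest were on 3L from 14747251 to 14750895 (5 peaks, 8.83 to 13.75), on 2L from 10004036 to 10007906 (5 peaks, 7.69 to 13.00) and on 3L from 13994252 to 13998983 (6 peaks, 8.24 to 15.21). None of the 5 tightest held a peak of 30 or more, and only 18 of all 79 loci did. Among the 3 loci with the longest span, the 3R locus from 11086651 to 11120109 spread 9 peaks over 33.5 kb, with scores from 8.51 to 16.73.

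Where peaks lie so close, their number may depend on how the caller divided stretches of enrichment, which was not tested. With peaks less than 500 bp apart merged, 43 loci of 5 or more remained, holding 277 of 1692 merged peaks (16.4%), and 42 of the 79 dense loci still overlapped such a locus. A shorter list also gives fewer chains. The higher-scoring 50% of main-arm peaks, in practice 1071 of 2006, was chained anew, which left 11 dense loci of 68 peaks. These 11 included the 2R locus with a median of 26.97, which kept 6 peaks, and the 2R locus from 4503678, which kept 7. The 2L loci from 11799077 to 11812774 and from 19568536 to 19587626 kept 7 each. The run at the start of 3L also kept 7, from 5076 to 18763, as did the 3L locus from 16031780 to 16045987. The locus from 19568536 held the highest member on 2L, a 1354 bp peak from 19575786 to 19577139 with a score of 32.75.

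The median score was 11.34 in dense loci (95% interval from order statistics 11.01 to 11.67), 11.34 in groups of 2 to 4 (11.34 to 11.67) and 11.67 for isolated peaks (11.19 to 12.20). The interquartile range was 9.74 to 14.11 in dense loci, 9.57 to 14.47 in groups of 2 to 4 and 9.43 to 15.59 for isolated peaks. The highest-scoring 25% of main-arm peaks begin at a score of 14.84, which was reached by 128 members (22.5%, exact Clopper-Pearson interval 19.2 to 26.2), beside 25.1% of all main-arm peaks, 24.2% of peaks in groups of 2 to 4 (21.4 to 27.2) and 29.1% of isolated peaks (25.4 to 33.0). The 90th percentile followed the same order, at 20.35 in dense loci, 21.62 in groups of 2 to 4 and 22.91 for isolated peaks. The order of the median scores differed by arm, and on the 4 autosome arms together the median was 11.34 in all 3 classes. Dense and isolated peaks had medians of 11.64 and 11.01 on 2L and of 11.34 and 11.165 on 3L. The medians were 11.515 and 12.32 on 2R, 11.34 and 11.65 on 3R, and 11.34 and 13.04 on the X. Intervals cover counting error only and treat peaks of 1 list as independent, and these differences were not tested.

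Dense-locus peaks had a median width of 320.5 bp (308 to 337 bp), against 310 bp in groups of 2 to 4 (300 to 319 bp) and 306 bp for isolated peaks (296 to 316 bp). The upper quartile was 459 bp in dense loci, 430 bp in groups of 2 to 4 and 427 bp for isolated peaks. The order was not the same on every arm. On 2L the median width was 344.5 bp in dense loci and 286 bp for isolated peaks, and on 3R it was 336 and 298 bp. On 2R it was 323.5 bp in dense loci and 348 bp for isolated peaks, on 3L 292 and 299 bp, and on the X 254 and 320 bp, the first of these from 16 peaks.

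**Figure D4:**
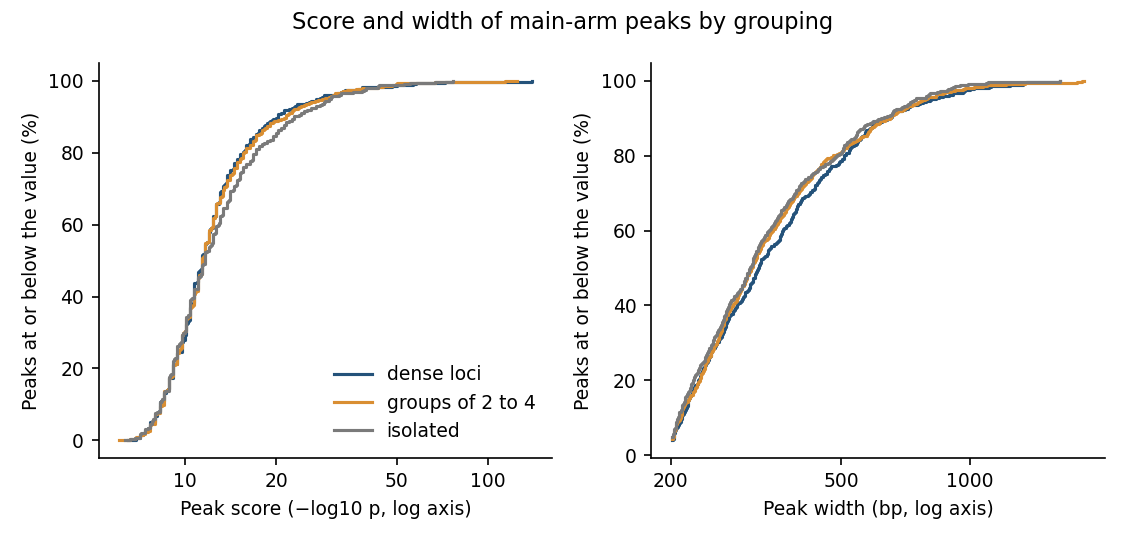
Cumulative percent of peaks at or below a given score (left, −log10 p, log axis) and width (right, bp, log axis) for dense loci (568 peaks), groups of 2 to 4 (860 peaks) and isolated peaks (578 peaks). The score curves lie close together near the median, and the curve of isolated peaks lies to the right of the others at the upper quartile (15.59) and the 90th percentile (22.91). The width curve of dense loci lies slightly to the right, with medians of 320.5, 310 and 306 bp.

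Dense loci took unequal shares of the peaks on each arm. On the X, 16 of 145 peaks were in dense loci (11.0%, exact interval 6.44 to 17.3), in 3 loci. The share was 22.6% on 2L (76 of 336 peaks, 10 loci), 28.9% on 3L (127 of 439, 17 loci), 29.5% on 3R (173 of 586, 22 loci) and 35.2% on 2R (176 of 500, 27 loci). On the 4 autosome arms together it was 29.7% (27.6 to 31.8). The X also had fewer peaks in all, and peaks that are sparser along an arm have fewer close neighbours. Peaks per length of arm were not compared, so the share and the density of peaks on an arm cannot be told apart here.

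The 3 loci on the X each had a lead above 20. Beside the locus of the 67.69 peak, the locus from 7187464 to 7201987 had 5 peaks of 25.14, 9.13, 10.37, 13.40 and 16.73. The locus from 7817179 to 7832568 had 6 peaks of 11.34, 8.83, 12.70, 12.35, 22.91 and 10.69. All 16 of these peaks matched the genome-wide background, as did 92.4% of isolated peaks on the X.

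**Figure D5:**
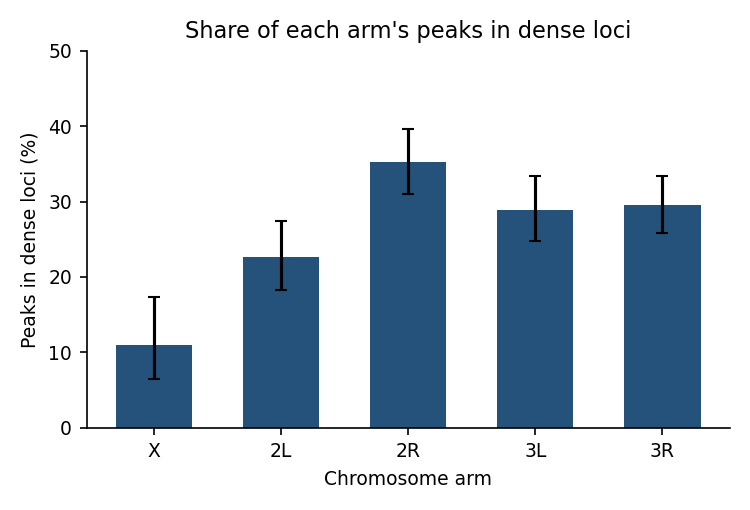
Share of the peaks on each main arm that lay in dense loci (%), with exact 95% Clopper-Pearson intervals as error bars. The share is 11.0% on the X, 22.6% on 2L, 35.2% on 2R, 28.9% on 3L and 29.5% on 3R.

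A score that fails to match the genome-wide background can come from a higher local background, since the peak caller compares each region with the larger of both, or from a small numerical deviation. Which of these applied was not tested. Of the 568 members, 429 matched (75.5%, exact interval 71.8 to 79.0), beside 75.6% of all main-arm peaks, 73.6% in groups of 2 to 4 and 78.5% of isolated peaks. The matched members had a median of 2.11-fold over background (interquartile range 1.99 to 2.27), against 2.11-fold in groups of 2 to 4 and 2.13-fold for isolated peaks. In 14 loci every peak matched. In 5 loci fewer than 50% did. These were on 3L from 5757107 to 5764000 (2 of 7), on 2R from 4503678 to 4510179 (3 of 10), from 14298540 to 14304265 (2 of 5), from 15159090 to 15167094 (3 of 7) and from 18563889 to 18587595 (3 of 7). The runs at the ends of 3L and 2L matched in 17 of 21 and 9 of 11 peaks.

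At the edge of the rule, the 22 loci of 5 peaks had a median score of 12.2 and a median span of 9.57 kb, and the 44 chains of 4 just outside had a median score of 11.4 and a median span of 9.11 kb. One size further out on each side, the median score was 11.51 in chains of 6 and 11.67 in chains of 3. The widest gap inside a dense locus was 9945 bp, and the narrowest gap that ended a dense locus was 10203 bp. Gaps of more than 8 kb occurred 29 times inside dense loci, and 9 of 156 gaps flanking a dense locus were 12 kb or less, while the median flanking gap was 44.6 kb.

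Some dense loci were neighbours of each other. In 6 places the edges of successive dense loci were at most 50 kb apart. On 3R, 6 peaks from 21821966 to 21836291 (scores 10.37 to 14.47) preceded the 14-peak locus with the 57.72 peak by 11.5 kb, which gave 20 peaks over 59.0 kb. The 3R loci from 11068714 to 11076662 and from 11086651 to 11120109 were 9.988 kb apart between edges, and together held 15 peaks over 51.4 kb. The locus of the 45.00 peak and that of the 139.55 peak, both on 3R, were 31.9 kb apart with no peak between them. The other 3 pairs were on 2R from 4503678 to 4557971 (17 peaks), on 2R from 7467619 to 7527435 (11 peaks) and on 3L from 9393518 to 9459035 (18 peaks, 3 of them between the loci).

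Genes at these loci are not named, because no annotation of FlyBase release 5 was used here.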

How the data were processed

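ChIP-seq libraries were sequenced from 2 scute ChIP and 2 input samples. The submitters' processing notes name MACS2, BWA and CASAVA (1.7.0.2, 1.7.0.3). Read filters, the peak threshold, replicate pooling and other versions remain not given in the sources used here. A single file was given: the authors deposited 1 peak list on FlyBase release 5, per the file headers, with an unnamed score taken here to be −log10 of a p-value.

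Peaks were chained by midpoint (10 kb limit, 5 or more peaks). A Poisson background mean was fitted to all scores between 5 and 150 fragments by the number of scores matched within 0.01, then by least squares. Shares have exact Clopper-Pearson and medians order-statistic intervals (95%). Chaining and fit were tested on simulated data. Python 3.11.15, pandas 2.3.3, numpy 2.4.6 and scipy 1.17.1 were used.

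Members, rules and comparisons were chosen with earlier results of these data known. Loci named are the 10 with the most peaks, 5 by median score, 5 by peaks per kb, 3 by span and that with the most peaks on each arm, with the 15 highest members, the highest on each arm and the 3 widest. Loci given with a dominant lead, several strong peaks, few matched peaks or a neighbouring locus, those left in the higher-scoring 50%, and all X loci were added after their values were seen. Motif, promoter and gene comparisons were not run, since no genome or annotation of release 5 was used here. Alternatives covered the gap, the chain size, edges against midpoints, score, merging, weighting by locus, the X and the tolerance.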

Additional observations from a re-analysis of the deposited data

How the results depend on the processing

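Of 117 values under 12 alternatives, 91 stayed within the interval of the reported value or, for counts, within 1.5 times of it. The other 26 follow. Dense peaks made up 18.9% of main-arm peaks with a 5000 bp limit, 40.7% with 20000 bp, 37.1% with 4 or more peaks per chain (123 loci) and 22.8% with 6 or more. The median gap was 1059 bp with the 5000 bp limit, 1866 bp with 20000 bp, 1057 bp between edges and 1726 bp with each locus counted once. With peaks within 500 bp merged, 43 loci held 277 peaks (16.4%), with a median width of 355 bp, a median gap of 2798 bp and a lead of 1.48 times the second score. In the higher-scoring 50% of peaks, 11 loci held 68 peaks (6.35%), with a median score of 13.8, a width of 420 bp, 41.2% at or above a score of 14.84, a gap of 1686 bp and a lead of 1.14 times the second; median scores were then 14.11 in groups of 2 to 4 and 14.75 for isolated peaks. The cut on score by itself raises these scores and the share at 14.84 or more. The 41.2% therefore cannot be set against the 22.5% of all members. All 504 main-arm peaks that reach 14.84 are among the 1071 peaks kept by the cut. Within a tolerance of 0.02, 79.9% of members matched, beside 79.8% of peaks in groups of 2 to 4 and 81.7% of isolated peaks. Each alternative changes the peaks, the loci or the measure that is counted, and the causes of these shifts were not tested. Leaving out the X, or the runs at the starts of 2L and 3L (added after the data were seen), moved no value beyond these limits. No paired analysis was possible because no value is given for any single library. No replicate could be left out for the same reason. Depth per library is unknown, so what it limits could not be examined.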

Other observations

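Chains of 5 or more peaks also occurred on the sequences left out. Chromosome 4 had 3 of them, with 5, 6 and 17 peaks and median scores of 9.13, 13.23 and 15.91. In the longest, from 1314939 to 1351845, 2 of 17 peaks matched the genome-wide background. On U, which joins unplaced scaffolds and so gives no true distances, 17 peaks lay from 2151318 to 2184107. Their median width was 760 bp and their median score 34.97, and 11 of them matched.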
